A study of Mus musculus with 2 samples.

Results

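The neurotrophin and glial cell line-derived neurotrophic factor (GDNF) genes described here are 2 ligand genes, Bdnf and Ntf3, and 6 receptor genes, Ntrk2, Ntrk3, Ngfr, Gfra1, Gfra2 and Ret. They were picked by gene symbol, and all 8 were found among the 32285 genes listed in the count files. The study asked how DNMT1 acts in the development of SST+ cortical interneurons (cINs). The data used here are single-cell RNA sequencing of mouse cerebral cortex, dissected on embryonic day (E) 16.5. There was 1 group of 2 libraries (replicates 1 and 2), with the genotype WT, taken from control embryos of a line that the labels call EomesDot. No treatment or mutant group was analysed here, and the labels do not say whether a library holds 1 embryo or several, so the spread between the libraries may be technical.

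Neurotrophins are secreted proteins that act on Trk receptor tyrosine kinases and on the pan-neurotrophin receptor encoded by Ngfr. Bdnf encodes brain-derived neurotrophic factor, which binds TrkB (Ntrk2), and Ntf3 encodes neurotrophin-3, which binds TrkC (Ntrk3). Gfra1 and Gfra2 encode membrane-anchored co-receptors for GDNF and neurturin that signal through the receptor tyrosine kinase Ret or through the adhesion molecule NCAM, and in the developing cortex these pathways are known for roles in neuronal survival, migration and the maturation of synapses.

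The libraries had 9049 and 13556 barcodes (replicates 1 and 2) and totals of 46398156 and 64324236 UMIs, where a UMI (unique molecular identifier) stands for 1 captured RNA molecule. Cells with 1500 to 60000 UMIs and under 10% mitochondrial UMIs were kept, which left 5966 and 10247 cells with medians of 5706 and 4938 UMIs. Only 40 barcode sequences occurred in both libraries. Cells were assigned to 21 cell classes by marker genes that include no member of the family, and each class is named "-like" after its markers. The gates took up 60.9% and 54.9% of the kept cells. A further 4.02% and 5.34% passed the gates of more than 1 lineage and were left out, and the rest passed none.

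The gates were checked against further markers that were not used for gating. For radial glial cell (RGC)-like, intermediate progenitor cell (IPC)-like, layer 6, MGE (medial ganglionic eminence) interneuron-like, Cajal-Retzius-like, mural-like and meningeal fibroblast-like cells, all of these markers were among their 3 highest gates. For striatal projection neuron-like cells this held for 6 of 7 markers, for upper-layer neuron-like and endothelial-like cells for 3 of 4, for LGE (lateral ganglionic eminence)-type interneuron-like cells for 2 of 3, and for layer 5 neuron-like cells for 2 of 4. The gate built on Zbtb20, Nrp2 and Nr3c2, meant for hippocampal neurons, had 0 of 3, and it is called Zbtb20/Nrp2/Nr3c2-gated neurons below. The subplate gate had 0 of 4 and held 17 and 22 cells, where the minimum was 20 in each library, so it entered no comparison. The microglia gate was led by Pf4, Mrc1 and C1qa, of which Pf4 and Mrc1 are also known from macrophages at the borders of the brain.

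The counts are UMIs read near the 3' end of transcripts and summed per gene. Because of this sum, full-length and truncated forms of Ntrk2 and Ntrk3 cannot be told apart. Levels are given in CPM, the UMIs of a gene per 1000000 UMIs of all genes, summed over the cells of a gate in a library. In these sums, fewer cells with a transcript and fewer transcripts per cell look alike.

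The members lie on 7 chromosomes, with 2 of them on chromosome 6. In the mouse build GRCm38.p6, on which mm10 is based, RefSeq places the ligand genes Bdnf (ENSMUSG00000048482) at chr2:109674700-109727043 and Ntf3 (ENSMUSG00000049107) at chr6:126101412-126166772. The neurotrophin receptors are Ntrk2 (ENSMUSG00000055254) at chr13:58806472-59133970, Ntrk3 (ENSMUSG00000059146) at chr7:78179986-78581034 and Ngfr (ENSMUSG00000000120) at chr11:95568818-95587698. The GDNF receptors are Gfra1 (ENSMUSG00000025089) at chr19:58235581-58455946, Gfra2 (ENSMUSG00000022103) at chr14:70890107-70979840 and Ret (ENSMUSG00000030110) at chr6:118151748-118197744. The longest are Ntrk3, which spans 401049 bases, and Ntrk2, which spans 327499 bases, and the shortest is Ngfr with 18881 bases.

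Promoter windows are shown for the starts of both ligand genes and of Ngfr, the receptor that all neurotrophins share, each as the 250 bases before a RefSeq transcription start of GRCm38.p6, written 5' to 3' on the strand of the gene. Capitals mark every match, on either strand, to GGGCGG (GC box), CAGATG (an E-box of the kind bound by proneural bHLH factors) or TCACGTCA (a calcium-response element known from an activity-dependent Bdnf promoter), and no matches overlap. Both windows of Ntf3 are on the minus strand of chromosome 6. The first, chr6:126166745-126166994, has 1 GC box, and the second, chr6:126164961-126165210, has 1 GC box and 1 E-box. The window of Ngfr, chr11:95587699-95587948 on the minus strand, has 4 GC boxes and a GC content of 70.4%. The window of Bdnf shown here, chr2:109692186-109692435 on the plus strand, is 1 of 7 listed for the gene, and it is the window with the calcium-response element.
Ntf3, first start: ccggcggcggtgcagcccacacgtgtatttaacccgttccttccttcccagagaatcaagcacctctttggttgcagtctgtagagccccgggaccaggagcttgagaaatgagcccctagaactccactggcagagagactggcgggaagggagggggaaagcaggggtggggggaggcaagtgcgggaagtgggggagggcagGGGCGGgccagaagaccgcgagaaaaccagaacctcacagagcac
Ntf3, second start: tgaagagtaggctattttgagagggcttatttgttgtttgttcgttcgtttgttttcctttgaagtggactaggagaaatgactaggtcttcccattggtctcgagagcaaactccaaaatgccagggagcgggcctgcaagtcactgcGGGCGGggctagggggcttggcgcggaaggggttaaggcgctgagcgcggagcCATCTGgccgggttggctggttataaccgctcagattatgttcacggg
Ngfr: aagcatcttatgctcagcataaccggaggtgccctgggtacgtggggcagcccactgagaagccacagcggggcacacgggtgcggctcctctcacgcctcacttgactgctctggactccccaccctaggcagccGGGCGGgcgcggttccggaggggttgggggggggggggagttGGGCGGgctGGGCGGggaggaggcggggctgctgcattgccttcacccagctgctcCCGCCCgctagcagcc
Bdnf: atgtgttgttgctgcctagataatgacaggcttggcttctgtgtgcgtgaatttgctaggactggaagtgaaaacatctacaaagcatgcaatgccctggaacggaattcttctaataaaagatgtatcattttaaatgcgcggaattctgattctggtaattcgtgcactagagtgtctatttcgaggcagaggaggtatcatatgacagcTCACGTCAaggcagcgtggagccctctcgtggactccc

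Among all 32851 promoter windows of the same length, 32.7% held a GC box, 14.4% the E-box and 0.350% the calcium-response element. The cAMP response element TGACGTCA (1.55% of windows) and the TATA box TATAAA (12.4%) were also searched, and none of the 12 windows of members had either. The single windows of Ntrk2 (chr13:58806319-58806568, 1 E-box) and Gfra1 (chr19:58455399-58455648, no match) are not printed. Such a match describes the letters only.

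Among the 20 gates compared, Ntf3 was highest in excitatory neuron-like cells. Its level in upper-layer neuron-like cells was 36.0 CPM in replicate 1 and 37.5 CPM in replicate 2. It was 27.0 and 22.7 CPM in layer 5 neuron-like cells, and 5.80 and 5.84 CPM in layer 6 neuron-like cells. These 3 gates did not overlap, in the order upper-layer, layer 5, layer 6. The order of the first pair rested on the mitochondrial limit. With under 5% mitochondrial UMIs, the mean level of Ntf3 was 18.4 CPM in upper-layer and 26.4 CPM in layer 5 neuron-like cells. The small subplate gate, which was not compared, had 66.2 CPM (9 UMIs) and 26.3 CPM (4 UMIs). Newborn excitatory neuron-like cells had 9.80 and 9.95 CPM, and Zbtb20/Nrp2/Nr3c2-gated neurons had 20.8 and 9.34 CPM, which overlapped with the newborn cells. No Ntf3 UMI was found in MGE interneuron-like, striatal projection neuron-like, Cajal-Retzius-like, endothelial-like, mural-like or meningeal fibroblast-like cells of either library. For MGE interneuron-like cells, a count of 0 allows up to 0.912 CPM (3 counts over both libraries). Upper-layer neuron-like cells held 34.8% and 31.5% of all Ntf3 UMIs of the kept cells.

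The Ntf3 UMIs came from few cells. In upper-layer neuron-like cells, 43 of 478 cells of replicate 1 and 80 of 782 cells of replicate 2 held at least 1 Ntf3 UMI. These cells held 3.0 and 2.28 Ntf3 UMIs each, and the highest cell had 11 UMIs in replicate 1 and 18 in replicate 2. With cells thinned to 1500 UMIs, 2.93% and 4.48% of upper-layer neuron-like cells held an Ntf3 UMI, against 0% and 0.478% of erythroid-like cells, a class that should lack it. As CPM of the UMIs other than globin, erythroid-like cells had 0 and 17.1 of Ntf3, the latter from 3 UMIs. In replicate 2 this lies above the levels of layer 6, newborn excitatory and Zbtb20/Nrp2/Nr3c2-gated neurons, so these lower levels are not shown to exceed free RNA. In comparison, cells with a Bdnf UMI held 1.19 and 1.29 Bdnf UMIs each over all kept cells, and those with an Ntf3 UMI held 2.59 and 2.12. In layer 6 neuron-like cells of replicate 1, 6 of the 7 Ntf3 UMIs were in 1 cell.

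Bdnf was at a low level in all gates, with 88 UMIs in replicate 1 and 139 in replicate 2 over all kept cells. The highest mean of the 20 gates compared was in Cajal-Retzius-like cells, at 18.6 and 11.8 CPM from 4 UMIs in each library. Striatal projection neuron-like cells had 5.35 CPM (8 UMIs) and 14.6 CPM (32 UMIs), and Zbtb20/Nrp2/Nr3c2-gated neurons had 6.40 and 6.59 CPM. The ranges of these 3 gates overlapped from one to the next, so their order is not resolved at this depth. The subplate gate, which was not compared, had 58.8 CPM (8 UMIs in 17 cells) and 13.2 CPM (2 UMIs in 22 cells). Upper-layer neuron-like cells had 0.837 and 3.71 CPM, and in CGE (caudal ganglionic eminence) interneuron-like cells no Bdnf UMI was found.

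**Figure D1:**
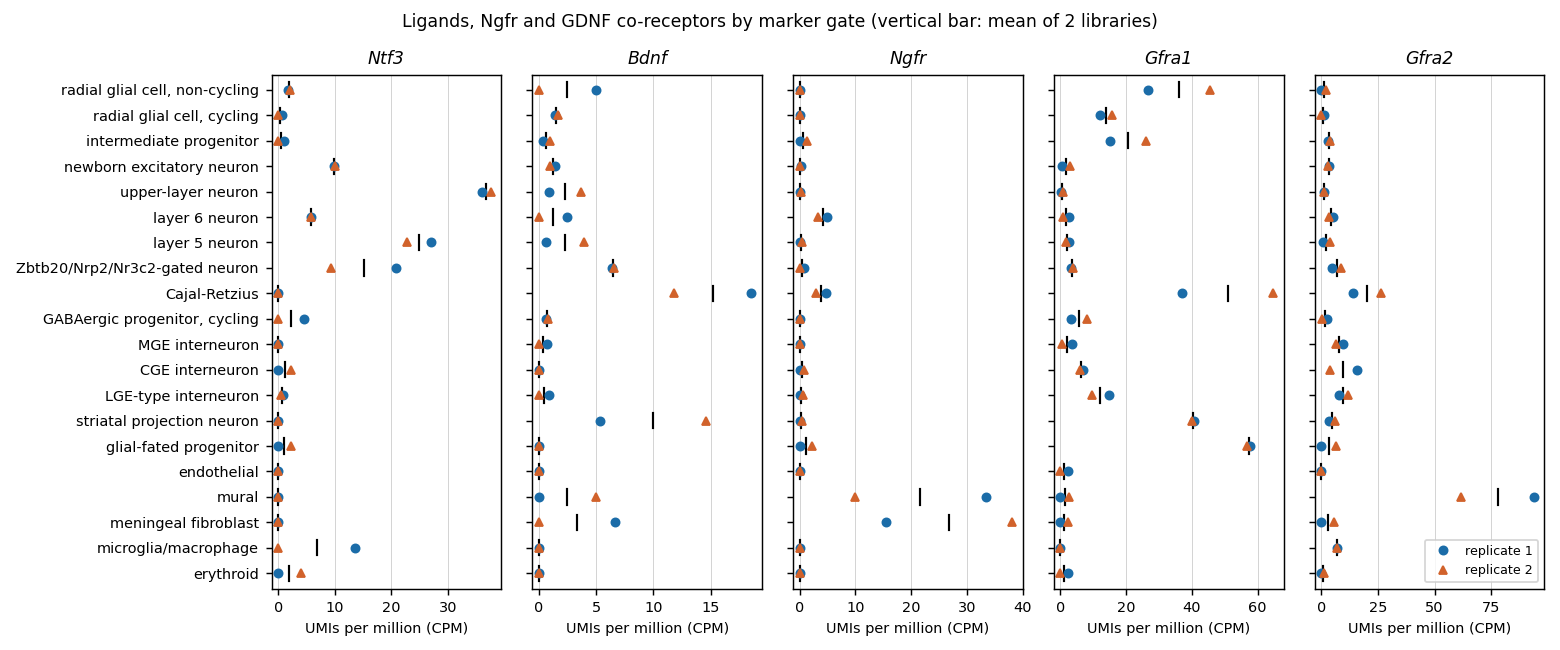
Level of Ntf3, Bdnf, Ngfr, Gfra1 and Gfra2 (x axis, CPM, each panel with its own scale) in 20 marker gates (y axis), with a circle for replicate 1, a triangle for replicate 2 and a vertical bar for their mean. Ntf3 is highest in upper-layer neurons (36.0 and 37.5 CPM; with under 5% mitochondrial UMIs, which are not plotted, it is highest in layer 5 neurons), Ngfr in mural and meningeal cells, Gfra2 in mural cells (93.7 and 61.7 CPM), and Gfra1 in glial-fated progenitors (57.8 and 56.8 CPM), Cajal-Retzius cells and striatal projection neurons.

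Ntrk2, the TrkB gene, was highest in RGC-like cells, MGE and CGE interneuron-like cells, layer 6 neuron-like cells and Cajal-Retzius-like cells. Its highest level was 345 CPM in replicate 1 and 386 CPM in replicate 2, in non-cycling RGC-like cells, and cycling RGC-like cells had 206 and 234 CPM. The libraries of these gates did not overlap. MGE interneuron-like cells had 315 and 323 CPM, layer 6 neuron-like cells 307 and 272 CPM, Cajal-Retzius-like cells 306 and 268 CPM, and CGE interneuron-like cells 280.2 and 213 CPM. Of these, the non-cycling RGC-like and the MGE interneuron-like gates lay apart from their next neighbour in the order, and the other 3 overlapped. Among neural gates the lowest levels were 57.2 and 42.7 CPM in IPC-like cells, 62.1 and 73.7 CPM in cycling GABAergic progenitor-like cells and 79.1 and 74.4 CPM in newborn excitatory neuron-like cells.

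Ntrk3, the TrkC gene, was mainly found in projection neurons. Striatal projection neuron-like cells had 815 and 606 CPM, layer 6 neuron-like cells 719 and 667 CPM, layer 5 neuron-like cells 546 and 569 CPM and upper-layer neuron-like cells 444 and 421 CPM. The first pair overlapped between libraries, layer 6 lay above layer 5, and layer 5 lay above upper-layer cells. Newborn excitatory neuron-like cells had 418 and 379 CPM. MGE interneuron-like cells had 62.1 and 47.8 CPM, below the 114 and 113 CPM of CGE interneuron-like cells and the 149 and 182 CPM of LGE-type interneuron-like cells. Outside neural cells, meningeal fibroblast-like cells had 185 and 228 CPM, while mural-like cells had 0 and 27.2 CPM, the latter from 11 UMIs of which 5 were in 1 cell.

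Free RNA in the droplets can give UMIs in cells that do not transcribe a gene. Erythroid-like cells, which should lack both receptors, had 9.21 and 17.2 CPM of Ntrk2 and 9.21 and 6.63 CPM of Ntrk3. As CPM of the UMIs other than globin, the Ntrk2 values were 43.5 and 74.3, and the Ntrk3 values were 43.5 and 28.6. The Ntrk2 range overlapped with the levels of IPC-like cells and cycling GABAergic progenitor-like cells and ended just under the 74.4 CPM of newborn excitatory neuron-like cells in replicate 2. The Ntrk3 range overlapped with cycling GABAergic progenitor-like cells (37.5 and 48.1 CPM) and lay just under the 47.8 CPM of MGE interneuron-like cells in replicate 2. With cells thinned to 1500 UMIs each, an Ntrk2 UMI was in 32.3% and 37.2% of MGE interneuron-like cells and in 2.31% and 2.87% of erythroid-like cells. An Ntrk3 UMI was in 50.7% and 41.4% of striatal projection neuron-like cells and in 3.08% and 0.957% of erythroid-like cells. Without thinning, an Ntrk2 UMI was found in 42.02% and 38.9% of all kept cells, and an Ntrk3 UMI in 54.1% and 50.4%.

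**Figure D2:**
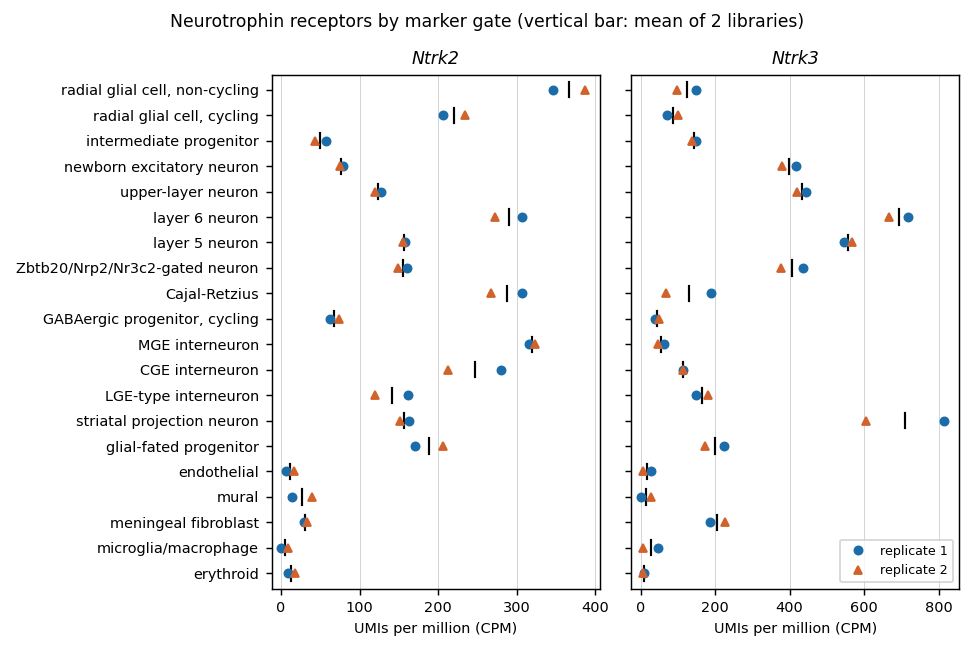
Level of Ntrk2 (left) and Ntrk3 (right) in CPM (x axis) in 20 marker gates (y axis), with a circle for replicate 1, a triangle for replicate 2 and a vertical bar for their mean. MGE interneurons are among the highest for Ntrk2 (315 and 323 CPM) and low for Ntrk3 (62.1 and 47.8 CPM), while layer 6 neurons are high for both.

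Ngfr, the pan-neurotrophin receptor gene, had 36 UMIs in replicate 1 and 75 in replicate 2, and was highest in cells of vessels and meninges. Meningeal fibroblast-like cells had 15.4 CPM (7 UMIs) and 38.1 CPM (34 UMIs), and mural-like cells had 33.5 CPM (10 UMIs) and 9.88 CPM (4 UMIs). These gates overlapped, and their order was not the same in the libraries. Layer 6 neuron-like cells came next with 4.98 and 3.25 CPM, from 6 and 5 UMIs. No Ngfr UMI was found in RGC-like, MGE interneuron-like or endothelial-like cells.

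Gfra1, the GDNF co-receptor gene, was highest in glial-fated progenitor-like, Cajal-Retzius-like, striatal projection neuron-like and non-cycling RGC-like cells. Glial-fated progenitor-like cells had 57.8 and 56.8 CPM, Cajal-Retzius-like cells 37.1 and 64.7 CPM, striatal projection neuron-like cells 40.8 and 40.1 CPM and non-cycling RGC-like cells 26.6 and 45.4 CPM. Their ranges overlapped from one to the next in this order. Cycling RGC-like cells had 11.9 and 15.8 CPM, below the non-cycling ones in both libraries. IPC-like cells had 15.1 and 26.1 CPM, whereas newborn excitatory neuron-like cells had 0.478 and 2.84 CPM and upper-layer neuron-like cells 0.279 and 0.619 CPM. Thus the IPC-like and upper-layer libraries did not overlap.

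Gfra2, the neurturin co-receptor gene, was highest in mural-like cells, at 93.7 CPM (28 UMIs) and 61.7 CPM (25 UMIs). This gate was above every other gate in both libraries. Cajal-Retzius-like cells followed with 13.9 and 26.5 CPM, from 3 and 9 UMIs, and the highest value of any other gate was 15.8 CPM, in CGE interneuron-like cells of replicate 1. Ret had 11 UMIs in each library. No gate held more than 3 Ret UMIs in a library, so no level of Ret is given by gate, and its low count did not pass the filter of the test.

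Ret UMIs were found in 0.168% and 0.0976% of all kept cells. A Ret UMI was in 1 of 200 Gfra1-positive cells of replicate 1 and in 1 of 337 of replicate 2 (0.5% and 0.297%), and in 0 of 118 and 0 of 226 Gfra2-positive cells. These zeros allow up to 2.54% and 1.33% of such cells to hold a Ret UMI and set no limit on the cells that express Ret. An Ncam1 UMI, of the alternative partner, was in 86.0% and 85.8% of Gfra1-positive cells, close to its share of 86.7% and 84.2% among all kept cells. With 10 Ret-positive cells in each library, pairs in the same cell were not measurable at this depth.

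**Figure D3:**
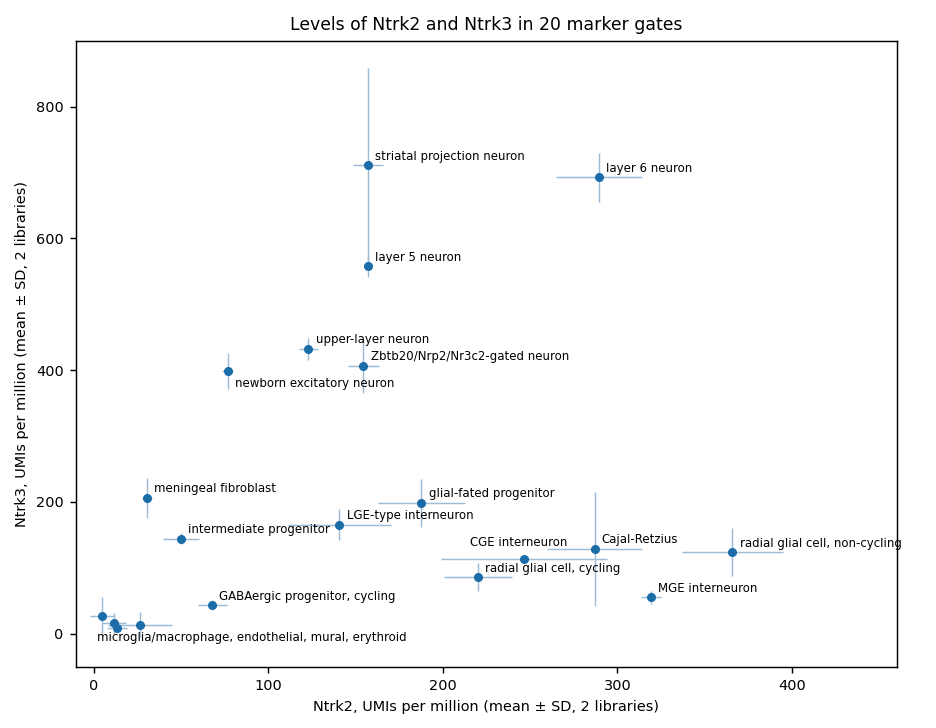
Mean level of Ntrk2 (x axis) and of Ntrk3 (y axis), both in CPM, with 1 point per marker gate and bars for the SD over 2 libraries. Layer 6 neurons are high for both genes, striatal projection neurons high for Ntrk3 at an intermediate Ntrk2, and RGCs and MGE interneurons high for Ntrk2 at a low Ntrk3.

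To test which members differ between cell classes, the counts were summed per gate and library and compared by the quasi-likelihood test of edgeR, and p-values were adjusted after Benjamini-Hochberg over all 14449 genes tested. Of the 8 members, 7 passed the filter on low counts (Ret did not). A member was called at an adjusted p-value under 0.05. Log2 fold changes are given with their standard error (SE), and all levels are means over the gates and libraries of a class. In excitatory neuron-like cells, the upper-layer, layer 6 and layer 5 gates were averaged.

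The first comparison asked which members distinguish RGC-like progenitors from excitatory neuron-like cells. Ntrk2 and Gfra1 were higher in RGC-like cells, and Ntrk3 and Ntf3 were lower. Thus 2 of 7 members were called higher, where 28% of all genes tested were, and 2 were called lower, where 29.8% of all genes were. Gfra1 had 24.9 CPM in RGC-like and 1.37 CPM in excitatory neuron-like cells, a log2 difference of 4.09 ± 0.39 (SE; adjusted p = 2.51e-12, edgeR). In single libraries, with a prior count of 2, the log2 ratio was 2.64 and 3.49. Ntrk2 differed by less, at 293 against 189.8 CPM and a log2 fold change of 0.54 ± 0.091 (adjusted p = 1.91e-06, edgeR). This did not hold for every pair of gates, since layer 6 neuron-like cells (307 and 272 CPM) lay above cycling RGC-like cells (206 and 234 CPM) in both libraries. Ntrk3 was at 105 against 561 CPM, a log2 fold change of -2.58 ± 0.14 (adjusted p = 1.10e-20, edgeR). For Ntf3 the log2 fold change was -4.30 ± 0.62 (adjusted p = 1.56e-07, edgeR), from 4 UMIs in RGC-like cells. Of 6 excitatory lineage markers, all had UMIs in non-cycling RGC-like cells and 5 in cycling ones, with Slc17a7 at 0. They summed to between 393 and 454 CPM in the RGC-like gates and to between 2870 and 4053 CPM in the excitatory neuron gates, and their part in these differences was not tested.

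Between IPC-like cells and RGC-like cells, the class that gives rise to them, Ntrk2 was lower in IPC-like cells and Ntrk3 higher. These were 1 of 7 members in each direction, where 15.3% of all genes were called higher and 16.3% lower. Ntrk2 was at 49.998 CPM in IPC-like and 293 CPM in RGC-like cells (log2 fold change -2.50 ± 0.14, adjusted p = 3.94e-19, edgeR), and was lower in both libraries, by 2.19 and 2.74 on the log2 scale. Ntrk3 differed by 0.53 ± 0.18 on the log2 scale (adjusted p = 0.0207, edgeR). This call was lost in DESeq2 (adjusted p = 0.229) and with the cells of highest doublet score in Scrublet removed (adjusted p = 0.0996, edgeR). Gfra1 was at 20.6 and 24.9 CPM and was not called (log2 fold change -0.11 ± 0.30). RGC markers (10 genes) summed to 1823 and 1750 CPM in IPC-like cells and to between 14215 and 18727 CPM in RGC-like cells.

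MGE interneuron-like cells, the class to which SST+ cINs belong, had more Ntrk2 and less Ntrk3 than excitatory neuron-like cells. Ntrk2 was at 319 against 189.8 CPM, a log2 fold change of 0.81 ± 0.10 (adjusted p = 2.39e-08, edgeR). Of the gates averaged, layer 6 neuron-like cells (307 and 272 CPM) were close to MGE interneuron-like cells (315 and 323 CPM), above all in replicate 1. Ntrk3 was at 54.9 against 561 CPM, a log2 fold change of -3.38 ± 0.19 (adjusted p = 2.20e-19, edgeR). Ntf3 had 0 UMIs against 423 and was at least 30.7-fold lower, as the UMIs of all gates and libraries pooled (28.0 CPM) against the floor of 3 counts over both libraries (0.912 CPM) (adjusted p = 4.57e-07, edgeR). Gfra2 was called higher at a low level, with 7.84 against 2.53 CPM and a log2 fold change of 1.66 ± 0.52 (adjusted p = 0.0150, edgeR). With under 5% mitochondrial UMIs, its log2 fold change fell to 0.29 and the call was lost (adjusted p = 0.874, edgeR). Erythroid-like cells held 0 and 1 Gfra2 UMIs, so the level of Gfra2 was not shown to exceed free RNA. So 2 of 7 members were called higher, with 12.1% of all genes, and 2 lower, with 11% of all genes. Bdnf had 1 UMI in MGE interneuron-like cells and 34 in excitatory neuron-like cells, a ratio of 7.41 with an exact 95% interval from 1.24 to 301, and was not called. The 6 excitatory lineage markers, all with UMIs, summed to 929 and 1341 CPM in MGE interneuron-like cells, above the 677 and 606 CPM of CGE interneuron-like cells, and their part in these differences was not tested.

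Inside the MGE interneuron-like gate, cells with at least 2 Sst UMIs (60 in replicate 1 and 72 in replicate 2) were set beside those with none (200 and 294). Sst encodes somatostatin and was itself 1 of the markers of the gate. Ntrk2 was at 412 and 333 CPM in the Sst-positive cells and at 284 and 311 CPM in the others. The Sst-positive value was higher in both libraries, by unequal amounts. Ntrk3 was at 107 and 36.7 CPM in Sst-positive cells and at 57.7 and 56.8 CPM in the others, so its direction was not the same in the libraries. These values have no test.

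Among GABAergic classes, CGE interneuron-like cells had more Ntrk3 than MGE interneuron-like cells. Ntrk3 was at 113 against 54.9 CPM, a log2 fold change of 1.06 ± 0.26 (adjusted p = 0.00498, edgeR), and an adjusted p of 0.0857 with under 5% mitochondrial UMIs. This was the 1 member called higher, where 2.46% of all genes were, and 0 members were called lower, where 3.45% of all genes were. At an unadjusted p under 0.05, Gfra1 (log2 fold change 1.72 ± 0.78) and Ntrk2 (-0.41 ± 0.14) also passed, and DESeq2 called no other member. Ntrk2 was at 246 against 319 CPM.

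Striatal projection neuron-like cells, a class of the ventral forebrain, differed from MGE interneuron-like cells in 4 of 7 members. Called higher were 3, where 5.07% of all genes were, and called lower was 1, where 5.43% were. Ntrk3 was at 711 against 54.9 CPM, a log2 fold change of 3.70 ± 0.21 (adjusted p = 6.75e-19, edgeR). Gfra1 was at 40.4 against 2.07 CPM, a log2 fold change of 4.41 ± 0.51 (adjusted p = 3.47e-09, edgeR). Its size rested on 5 and 1 UMIs in MGE interneuron-like cells, and the log2 ratio, with a prior count of 2, was 3.08 in replicate 1 and 4.48 in replicate 2. Ntrk2 went the other way, at 157 against 319 CPM (log2 fold change -1.03 ± 0.14, adjusted p = 1.10e-07, edgeR). Bdnf had 40 UMIs against 1, a ratio of 35.7 with an exact 95% interval from 6.04 to 1444. Its adjusted p was 0.00398 in edgeR and 0.0774 in DESeq2. The interval covers counting error only.

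Between cortical layers, Ntrk2 and Ntrk3 were higher in deep-layer than in upper-layer neuron-like cells, and Ntf3 was lower. The receptor genes and this ligand gene thus differed in opposite directions. Ntrk2 was at 223 against 123 CPM, a log2 fold change of 0.75 ± 0.12 (adjusted p = 2.88e-06, edgeR), and was 0.75 higher on the log2 scale in each library. Layer 6 (307 and 272 CPM) was further from the upper-layer gate (127 and 119 CPM) than layer 5 was (158 and 156 CPM). Ntrk3 was at 625 against 432 CPM, a log2 fold change of 0.49 ± 0.14 (adjusted p = 0.0117, edgeR). Ntf3 was at 15.3 against 36.8 CPM, a log2 fold change of -1.65 ± 0.31 (adjusted p = 0.000155, edgeR). DESeq2 gave the same directions but called only Ntrk2, with adjusted p-values of 0.212 for Ntrk3 and 0.323 for Ntf3. With under 5% mitochondrial UMIs, the log2 fold change of Ntf3 was -0.50 (adjusted p = 0.601) and that of Ntrk3 was 0.37 (0.160), and without the library block the adjusted p of Ntrk3 was 0.0801. Of 7 members, 2 were called higher and 1 lower, where 5.27% and 4.51% of all genes were.

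Zbtb20/Nrp2/Nr3c2-gated neurons had less Ntf3 than upper-layer neuron-like cells, at 15.1 against 36.8 CPM (log2 fold change -1.46 ± 0.36, adjusted p = 0.00515, edgeR). DESeq2 did not call Ntf3 (adjusted p = 0.601). Gfra2 was at 6.79 against 1.21 CPM (log2 fold change 2.41 ± 0.66, adjusted p = 0.0125, edgeR) and Gfra1 at 3.52 against 0.449 CPM (2.63 ± 0.86, adjusted p = 0.0466, edgeR; 0.0627 without the library block). Both were called higher on 10 and 4 UMIs in upper-layer cells, and both calls were lost with the highest doublet scores removed (adjusted p = 0.166 and 0.150, edgeR). Erythroid-like cells held 0 and 1 Gfra2 UMIs and 1 and 0 Gfra1 UMIs, so these low levels were not shown to exceed free RNA. With under 5% mitochondrial UMIs none of the 3 calls stood (adjusted p = 0.200 for Ntf3, 0.151 for Gfra2 and 0.124 for Gfra1, edgeR), and Ntrk2 was called higher (log2 fold change 0.72, adjusted p = 0.0138, edgeR). These were 2 of 7 members higher and 1 lower, where 4.71% and 3.41% of all genes were. With the main limit of 10%, Ntrk2 and Ntrk3 were not called, at 155 against 123 CPM and 407 against 432 CPM.

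Mural-like and meningeal fibroblast-like cells, averaged as 1 class, differed from endothelial-like cells in Ngfr, Gfra2 and Ntrk3, but Gfra2 and Ntrk3 each came mainly from 1 of the gates. Ngfr had 55 UMIs in mural-like and meningeal fibroblast-like cells and 0 in endothelial-like cells, so its pooled level of 26.8 CPM was at least 10.5-fold higher (adjusted p = 0.000334, edgeR). It passed the filter of 10 counts in 2 sums only through mural-like cells of replicate 1 and meningeal fibroblast-like cells of replicate 2. A difference here was thus built into its being tested, and its adjusted p is no support for one. Gfra2 had 58 against 0 UMIs, a pooled 28.3 CPM, and was at least 11.05-fold higher (adjusted p = 0.00211, edgeR). Of the Gfra2 UMIs, 28 and 25 were in mural-like cells and 0 and 5 in meningeal fibroblast-like cells. Both bounds take 3 counts over both libraries as the floor. Ntrk3 was called higher with a log2 fold change of 2.07 ± 0.64 (adjusted p = 0.0151, edgeR), but the libraries went opposite ways, with -0.83 in replicate 1 and 3.59 in replicate 2, and its adjusted p was 0.460 with the highest doublet scores removed. Of its UMIs, 84 and 203 were in meningeal fibroblast-like cells, and the 0 and 27.2 CPM of mural-like cells overlapped with the 27.3 and 5.46 CPM of endothelial-like cells. The adjusted p of Gfra2 with the highest doublet scores removed was 0.106. So 3 of 7 members were called higher, where 8.74% of all genes were, and 0 lower, where 10.8% were. The Ngfr call was built into the filter and the libraries disagreed on Ntrk3, so the 3 were not read against that share. No other member than Ntrk2 passed an unadjusted p under 0.05, and DESeq2 called Ntrk2 as well, higher with an adjusted p of 0.0325 against 0.0538 in edgeR. Of 10 endothelial markers, 8 had UMIs in mural-like cells, with Kdr at 0. They summed to 381 and 442 CPM in mural-like cells and to 7375 and 8416 CPM in endothelial-like cells.

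**Figure D4:**
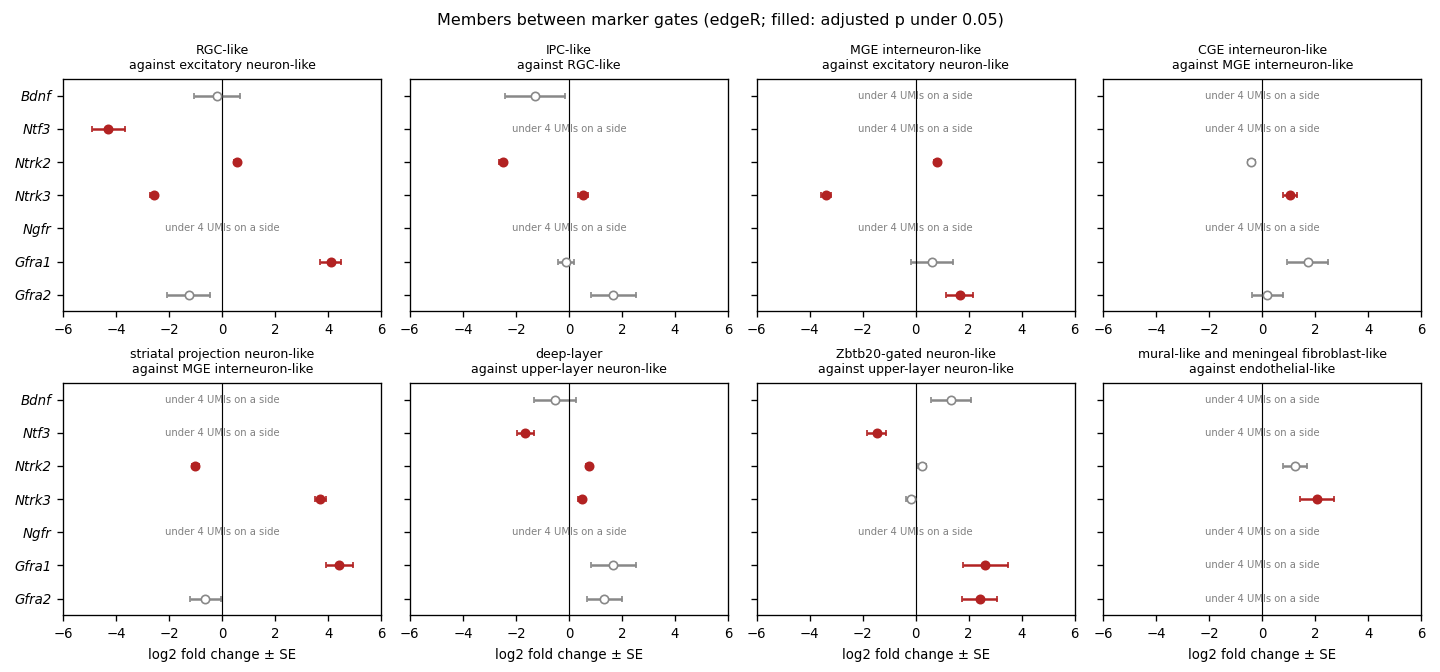
Log2 fold change with its SE (x axis) of the 7 members tested (y axis) in 8 comparisons between marker gates, 1 per panel, with filled red points for an adjusted p under 0.05 in edgeR and open grey points otherwise. No point is drawn where a side had under 4 UMIs. Ntrk3 was called in 7 of the 8 comparisons, and Ntrk2 in 5, where 5.91% to 57.8% of all genes tested were called in a comparison. For Ntrk3 in mural and meningeal cells the libraries went opposite ways. Its calls in IPC-like and deep-layer cells were lost in DESeq2, and that in CGE interneurons was lost with under 5% mitochondrial UMIs.

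The members did not move one way as a group. Over the 8 comparisons, the median log2 fold change of the members tested ranged from -2.36 (MGE interneuron-like against excitatory neuron-like cells) to 2.07, while that of all genes tested ranged from -0.06 to 0.00036. The fitted fold change of a member with few or no UMIs on a side depends on the prior count. Over the members with at least 4 UMIs on each side, 2 to 6 of them in a comparison, the medians ranged from -0.74 (RGC-like against excitatory neuron-like cells) to 1.65, and the median for MGE interneuron-like against excitatory neuron-like cells was 0.72. Several comparisons share gates, so their calls are not independent of each other. Differences between gates lie within the same 2 libraries. With the library as a block, an SE describes only the scatter left over in these 2 libraries, pooled over all gates of the fit.

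The other genes of the pathways were followed as a list of 50 genes, of which 40 passed the filter. None of the 7 other ligand genes did. Nrtn, which encodes neurturin, had 54 UMIs in all gates and Gdnf had 10, and no Pspn UMI was found. Among receptors, Gfra3 had 5 UMIs. The sorting receptors of the sortilin family were more abundant. Sorcs1 reached 417 and 325 CPM in cycling RGC-like cells, and Sorcs3 reached 462 and 440.4 CPM in CGE interneuron-like cells.

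In RGC-like against excitatory neuron-like cells, 7 of the 40 genes were called higher and 22 lower, where 28% and 29.8% of all genes were, with a median log2 fold change of -0.73 against -0.06 for all genes. In each comparison the genes named are those called with the largest fold changes in each direction. Sorcs1 (log2 fold change 3.72 ± 0.15) and Shc3, which encodes an adaptor of Trk receptors (1.98 ± 0.13), were higher in RGC-like cells. Lingo1 (-4.87 ± 0.32), which encodes a partner of the Ngfr protein, and Lingo2 (-2.98 ± 0.26) were lower. In IPC-like against RGC-like cells 10 of 40 were higher and 9 lower, where 15.3% and 16.3% of all genes were. Dok4 (2.49 ± 0.45) and the syndecan gene Sdc3 (2.25 ± 0.20) led the first, and Shc3 (-3.40 ± 0.20) and Sorcs1 (-3.32 ± 0.18) led the second. Thus Ntrk2, Shc3 and Sorcs1 were each higher in RGC-like cells than in both IPC-like and excitatory neuron-like cells.

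In MGE interneuron-like against excitatory neuron-like cells, 8 of 40 were higher and 12 lower (12.1% and 11% of all genes), led by Sorcs3 (4.01 ± 0.30) and the convertase gene Pcsk1 (3.46 ± 0.54), and by Dok5 (-3.21 ± 0.21) and Lingo1 (-3.16 ± 0.28). In CGE against MGE interneuron-like cells, 2 of 40 were higher (2.46% of all genes), Sorcs3 (2.54 ± 0.21) and Ptprs (0.61 ± 0.12), and 1 was lower (3.45% of all genes), Sorcs1 (-1.29 ± 0.20). In striatal projection neuron-like against MGE interneuron-like cells, 8 of 40 were higher (5.07% of all genes), led by Lingo2 (2.87 ± 0.21) and Sorl1 (2.63 ± 0.28), and 7 were lower (5.43% of all genes), led by Pcsk1 (-4.05 ± 0.83) and Ncam1 (-0.95 ± 0.12). Ncam1, which encodes the alternative GDNF receptor NCAM, was at 640.4 against 1246 CPM there, while Gfra1 was higher in the striatal cells.

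Between deep-layer and upper-layer neuron-like cells, 3 of the 40 genes were higher and 5 lower, where 5.27% and 4.51% of all genes were. Pcsk5, which encodes a proprotein convertase, was at 71.7 against 1.15 CPM (5.84 ± 0.40), and Lingo1 was next (1.12 ± 0.16). Dok5, which encodes an adaptor of Trk receptors and Ret, was at 95.4 against 258 CPM (-1.54 ± 0.12), and Sorcs1 was next (-1.26 ± 0.24). In Zbtb20/Nrp2/Nr3c2-gated against upper-layer neuron-like cells, 5 of 40 were higher (4.71% of all genes), led by Pcsk5 (3.70 ± 0.55) and Sorcs3 (3.56 ± 0.42), and 2 were lower (3.41% of all genes), Dok5 (-2.82 ± 0.17) and Dok6 (-0.69 ± 0.14). In mural-like and meningeal fibroblast-like against endothelial-like cells, 10 of 40 were higher (8.74% of all genes), led by Sorcs1 (2.23 ± 0.67) and Sorcs2 (2.04 ± 0.60), and 5 were lower (10.8% of all genes), led by Dok4 (-5.00 ± 0.35) and Lingo2 (-4.87 ± 1.45). In the mural and meningeal comparison, Sorcs1 and Sorcs2 differed by 0.80 and 0.17 on the log2 scale in replicate 1 and by 3.78 and 4.79 in replicate 2. Values in parentheses are log2 fold changes with SE from edgeR.

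The genes most like each member were taken by the Pearson correlation of log2(CPM + 1) over 42 sums of gate and library, among 13597 genes with at least 10 CPM in at least 2 sums. The sums of a gate share their cells' class and the sums of a library share its depth, so these are descriptions with no test. For Ntrk2 they were Fgf12 (r = 0.91), Gnao1 (0.90) and Acat2 (0.89). For Ntrk3 they were Celf2 (0.88), Tenm3 (0.88) and Ephb1 (0.86), and for Ntf3 Gm10862 (0.89), Mlip (0.82) and Id2 (0.81). Among the gates that entered the comparisons, the highest level of Gm10862 and Mlip, as of Ntf3, was in upper-layer neuron-like cells. The small subplate gate, which was not compared, had a higher mean of Ntf3 (46.3 against 36.8 CPM). For Ngfr they were Col6a2 (0.87), Bmp5 (0.85) and Sod3 (0.85), each highest in meningeal fibroblast-like or mural-like cells. The values were lower for Gfra1, with Pcdh11x (0.77), BC006965 (0.75) and Otx2 (0.74), for Gfra2, with Lbh (0.71), Abca7 (0.69) and Rgs4 (0.68), and for Bdnf, with Kcnk9 (0.70), Fstl4 (0.67) and Slc27a3 (0.67). The 3 genes of Gfra2 were all highest in mural-like cells.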

How the data were processed

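Single-cell RNA sequencing (10x 3' v3.1) of 2 WT libraries of E16.5 cerebral cortex was analysed. The deposited values are whole UMI counts per gene and barcode, made by the authors with Cell Ranger (7.0.0 in the submitters' processing notes, 7.1.0 in the file header) on mm10, without normalization. From these counts, cells with 1500 to 60000 UMIs and under 10% mitochondrial UMIs were kept, and cells were gated on marker UMIs. The members and gene lists were chosen with earlier results of these data known, and gate thresholds were set after cells, but not the members' values, had been seen. Replicate numbers follow accession order and only name libraries. p-values measure only the spread between these libraries.

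Counts were summed per gate and library, for the 20 gates with at least 20 cells in each library. The 40 sums were fitted together with edgeR 4.0.16 (R 4.3.3, TMM, quasi-likelihood test, library as a block, 19 residual degrees of freedom) over the 14449 genes that reached 10 counts in 2 or more sums, with Benjamini-Hochberg adjustment within each of 8 comparisons. The step was tested on simulated counts. The library is a block because gates of 1 library share its cells' handling. Alternatives were DESeq2 1.42.0, no filter, no block, only the gates compared, stricter gates, removal of the highest Scrublet scores (scanpy 1.11.5), under 5% mitochondrial UMIs and each library alone. All members that passed the filter were tested in every comparison, and every called member is named. From the pathway list, each comparison names up to 2 called genes per direction, ranked by fold change, that reached 10 CPM in the higher class and moved the same way in both libraries. Doublets were otherwise treated only by leaving out cells that passed gates of more than 1 lineage. Intervals and floors cover counting error only. Some genes of the pathway list are not reported here.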

Additional observations from a re-analysis of the deposited data

Results flagged for a closer look

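Member UMIs were also found in cells that entered no comparison. In the small subplate gate, Ntf3 was at a mean of 46.3 CPM (9 and 4 UMIs), Ntrk2 at 316 CPM (44 and 47 UMIs) and Ntrk3 at 350.3 CPM (38 and 64 UMIs). Bdnf was at 58.8 CPM in replicate 1 (8 UMIs) and at 13.2 CPM in replicate 2 (2 UMIs), the latter below the 19.7 CPM that a count of 0 allows there. In cells that passed no gate, the mean level was 2.23 CPM for Bdnf, 9.57 for Ntf3, 167 for Ntrk2, 334 for Ntrk3, 0.629 for Ngfr, 8.28 for Gfra1, 3.92 for Gfra2 and 0.332 for Ret. Apart from Bdnf in replicate 2 of the subplate gate, these values exceeded the limit that a count of 0 allows, and which cell classes the ungated cells hold was not tested.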

How the results depend on the processing

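Of 8 members, 7 kept their highest gate with the highest Scrublet scores removed and 8 with stricter gates, which lost 1 call (Gfra1 in Zbtb20/Nrp2/Nr3c2-gated neurons, adjusted p = 0.197, edgeR). With under 5% mitochondrial UMIs, 2 did, where 14 gates were left and the mural and meningeal comparison could not be made. For 5 of the other 6 the gate was no longer there, and Ntf3 was highest in layer 5 (26.4 CPM) and not in upper-layer neuron-like cells (18.4 CPM). With each library alone, 4 to 7 members kept their highest gate. The count of members called fell from 1 to 0 for CGE against MGE interneuron-like cells under 5% mitochondrial UMIs, and from 2 to 1 for IPC-like against RGC-like cells in DESeq2 and with the highest Scrublet scores removed. It fell from 3 to 1 for deep-layer against upper-layer cells in DESeq2 and under 5% mitochondrial UMIs, and from 3 to 1 for Zbtb20/Nrp2/Nr3c2-gated against upper-layer cells with the highest Scrublet scores removed. Under 5% mitochondrial UMIs it was also 1 there, but all 3 calls (Ntf3, Gfra1 and Gfra2) were lost and Ntrk2 was gained. Other single calls were lost for Gfra2 in MGE interneuron-like against excitatory neuron-like cells (under 5% mitochondrial UMIs, adjusted p = 0.874), for Bdnf in striatal projection neuron-like cells (DESeq2, 0.0774), for Ntf3 in Zbtb20/Nrp2/Nr3c2-gated neurons (DESeq2, 0.601) and for Gfra2 (0.106) and Ntrk3 (0.460) in mural-like and meningeal cells (highest Scrublet scores removed). The calls gained were all of Ntrk2, in mural-like and meningeal cells in DESeq2 (0.0325), with only the gates compared (0.0470) and with the highest Scrublet scores removed (0.0120), and in Zbtb20/Nrp2/Nr3c2-gated neurons with only the gates compared (0.0144) and under 5% mitochondrial UMIs (0.0138). The cause was not tested. Ntrk3 in mural-like and meningeal fibroblast-like against endothelial-like cells turned to a log2 ratio of -0.83 without replicate 2 (3.59 without replicate 1), and Bdnf in striatal projection neuron-like against MGE interneuron-like cells had 1.68 in replicate 1 and 3.58 in replicate 2. Without the library block, 2 calls of single members were lost (Ntrk3 in deep-layer cells, adjusted p = 0.0801, and Gfra1 in Zbtb20/Nrp2/Nr3c2-gated neurons, 0.0627) and 1 was gained (Ntrk2 in mural-like and meningeal cells, 0.0399, edgeR), and no other call changed without the block. No filter on low counts changed none of the 56 calls or missed calls. With each library alone there is no test, and of 56 log2 fold changes 28 moved by more than the SD between the libraries without replicate 1, and 30 moved and 1 reversed without replicate 2. These ratios use a prior count of 2, which draws those of few UMIs toward 0. The depth limits Bdnf, Ngfr, Gfra2 and Ret, which had at most 267 UMIs in a library.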
